A study of Mus musculus with 2 samples.

Results

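The genes described here are 44 genes of the immediate early and heat shock responses, which are known to be switched on in cells that are taken out of their tissue. They were chosen by name: every probe whose gene name in the array files is 1 of the 44 was taken. All 44 genes had a probe, with 64 probes among the 41174 gene probes and 44 genes among the 27827 gene names of the array. They fall into 30 immediate early members and 14 heat shock members. Of the 44 genes, 32 were measured, meaning that the population with the higher mean level was well above background on both arrays. These were 18 of the 30 immediate early members and all 14 heat shock members.

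The mice were Lgr5-EGFP-ires-CreERT2 knock-ins: the locus of the stem cell marker Lgr5 drives green fluorescent protein (GFP) and an inducible Cre, and the tissue was the pylorus, the outlet of the stomach. The pyloric tissue of 20 mice was pooled, digested with trypsin and sorted by flow cytometry into cells with high GFP (GFPhigh) and cells with low GFP (GFPlow). The 2 RNAs were set against each other on 2 Agilent arrays that differ in dye: GFPhigh carried Cy3 on array 1, and Cy5 the second time. As far as the labels say, there is 1 RNA sample per population, which means that both arrays count as 1 replicate and that the populations cannot be tested against each other. Both populations carry the same knock-in allele and went through the same digestion and sort, and no undissociated tissue was analysed here. The part of handling in any level below was not tested.

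Immediate early genes are transcribed within minutes of a stimulus from factors that already wait in the cell, and many of their products are transcription factors or short-lived inhibitors of the signal that induced them. Heat shock genes encode chaperones, which bind unfolded proteins and help them fold, and many are activated by the factor HSF1. Enzymatic digestion of a tissue at warm temperature is known to induce both programmes, and several chaperones are also abundant in unstressed, growing cells.

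Heat shock element matches were found near the start sites of Hsph1, Hspd1 and Hspe1, and they are shown because these genes were among the members with the lowest ratios. Of the 44 members, 35 had an entry in the RefSeq promoter table of build GRCm38.p6, which holds 250 bases before and 50 bases after each start site. Not matched were Fosl1, Egr1, Egr3, Ier2, Ctgf, Hspa8, Hsp90aa1, Hsp90ab1 and Hmox1. The heat shock element was searched on both strands as 3 units, GAA, TTC and GAA, with any 2 bases between units, and matches may overlap. An exact match was present in 3 of the 10 heat shock members with an entry, in 0 of the 25 immediate early members with an entry, and in 0.662% of all 27025 genes in the table. Hspd1 and Hspe1, which encode both parts of the mitochondrial chaperonin, lie head to head, and the same 58 bases at chr1:55088039-55088096 hold 2 overlapping matches for both genes. The matches begin 144 and 139 bases before the Hspd1 start on the minus strand, and 89 and 84 bases before the Hspe1 start on the plus strand. The Hsph1 match begins 15 and 36 bases after the start sites listed for that gene. It lies within the printed window at chr5:149636280-149636308 on the minus strand. In the lines that follow, each read 5′ to 3′, capitals mark the matches.
Hspd1: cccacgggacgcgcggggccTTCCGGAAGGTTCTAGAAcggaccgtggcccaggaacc
Hspe1: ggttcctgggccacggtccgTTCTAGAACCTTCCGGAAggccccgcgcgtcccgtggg
Hsph1: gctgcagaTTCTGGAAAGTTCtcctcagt

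A further 3 motifs were searched on both strands in the same windows. The cAMP response element TGACGTCA was present in 3 of the 25 immediate early members with an entry, Maff, Dusp1 and Btg2, in 0 of the 10 heat shock members and in 2.03% of all genes. The AP-1 site TGACTCA was present in 0 of the 25 immediate early members and in 1 heat shock member, Bag3, against 5.95% of all genes. The serum response element was present in 2 of the 25 immediate early members, Egr2 and Zfp36, in 0 of the 10 heat shock members and in 1.81% of all genes. The window of Btg2, a gene with one of the higher ratios of this set, is at chr1:134079294-134079341 on the minus strand, and that of Dusp1 at chr17:26508588-26508635 on the minus strand. They are shown to place the matches, in capitals, which begin 166 and 143 bases before the start. A match is a description of these letters and no evidence of binding. For each motif searched, a missing match covers only the exact pattern in this window and does not show that a gene lacks the element.
Btg2: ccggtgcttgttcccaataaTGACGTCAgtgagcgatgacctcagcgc
Dusp1: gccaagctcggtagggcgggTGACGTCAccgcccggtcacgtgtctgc

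Across the array, 28.6% and 18.7% of gene spots were well above background for GFPhigh on arrays 1 and 2, and 25.1% and 31.7% for GFPlow. The comparison covered 7835 genes, with a median absolute difference of 0.38 between the log2 ratios of the arrays. Lgr5, whose locus drives the GFP used for sorting, was higher in GFPhigh, with a log2 ratio of 2.28 ± 0.06. All 13 markers of gastric epithelium were measured. Of these, 6 were called higher in GFPlow, where 2.69% of all measured genes were, and 0 in GFPhigh, where 1.76% were. In contrast, 15 of 16 immune markers (Ptprc, Cd68 and Cd3e among them), 9 of 12 fibroblast and muscle markers (Col1a1 and Vim among them) and 6 of 8 endothelial markers (Pecam1 among them) were not well above background in any channel. Acta2, Col1a2, Tagln and Esam were well above background in all channels. Acta2 gave 414 and 329 in GFPhigh against 562 and 522 in GFPlow. Fcer1g and Egfl7 were well above background in GFPlow on both arrays and in GFPhigh on 1. Summed intensity over the 16 immune markers was 1487 and 1432 in GFPhigh and 1495 and 1390.1 in GFPlow. Over the 12 fibroblast and muscle markers it was 1551 and 1792 in GFPhigh and 1691 and 1565 in GFPlow, and over the 8 endothelial markers 898 and 882 in GFPhigh and 859 and 869.8 in GFPlow. These sums include the probes that were not well above background in any channel.

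Intensities below are background-corrected and normalized, include an offset of 50, and are given as array 1 and then array 2. A ratio is the log2 of GFPhigh over GFPlow, its error is the SD of the 2 arrays and covers technical error only, and positive values are higher in GFPhigh. A gene is called higher in a population when it was at least 2-fold higher there on each array. In RNA from sorted populations, fewer cells with a transcript and less transcript per cell cannot be told apart. Levels of different probes are not compared with each other. All ratios are relative to the average gene: with centring on spike-in RNA each log2 ratio is lower by 0.78, and 15 of the 32 measured members change sign. The spike-in log2 ratios averaged 0.60 on array 1 and 0.96 on array 2. Their mean, 0.78, was taken from both arrays alike, and calls under this centring depend on that choice.

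Most heat shock members had ratios below the average gene, while the immediate early members lay on both sides of it. Of the 32 measured members, 0 were called higher in GFPhigh, where 1.76% of all measured genes were, and 1 was called higher in GFPlow, where 2.69% were. The called gene was Hspd1. The median ratio was -0.44 over the 14 heat shock members and 0.24 over the 18 measured immediate early members, beside -0.06 over all measured genes. These medians describe the members that passed the filter on dim probes. A gene well above background on both arrays in GFPlow only passed if its mean ratio was not above 0, and the reverse held for GFPhigh. Of the 7835 measured genes, 7713 were well above background on both arrays in GFPlow and 6352 in GFPhigh. Counts of genes below and above 0 depend on this filter. Over all 30 immediate early members without that filter the median was 0.049, beside 0.0075 over all genes, and it stayed at -0.44 over the heat shock members, all of which had passed. Where both populations had to be well above background on both arrays, Gadd45a and Hspb1 dropped out and the medians were 0.27 and -0.56. Ratios were below 0 on both arrays for 9 of the 14 heat shock members and above 0 on both for 0, against 36.6% and 28.1% of all measured genes. Of the 18 immediate early members, 10 were above 0 on both arrays, 3 were below 0 on both and 5 had opposite signs. With centring on spike-ins 16 of these 18 had a mean ratio below 0, so the sign of their ratios holds only relative to other genes. Under the alternatives in processing, 9 of the 14 heat shock members and 5 of the 18 immediate early members stayed on 1 side of 0 throughout. Both centring alternatives lowered the ratio of every measured member, so they could move members across 0 only from above. These counts therefore largely follow the sign of the reported ratios and do not compare how stable the classes are.

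**Figure D1:**
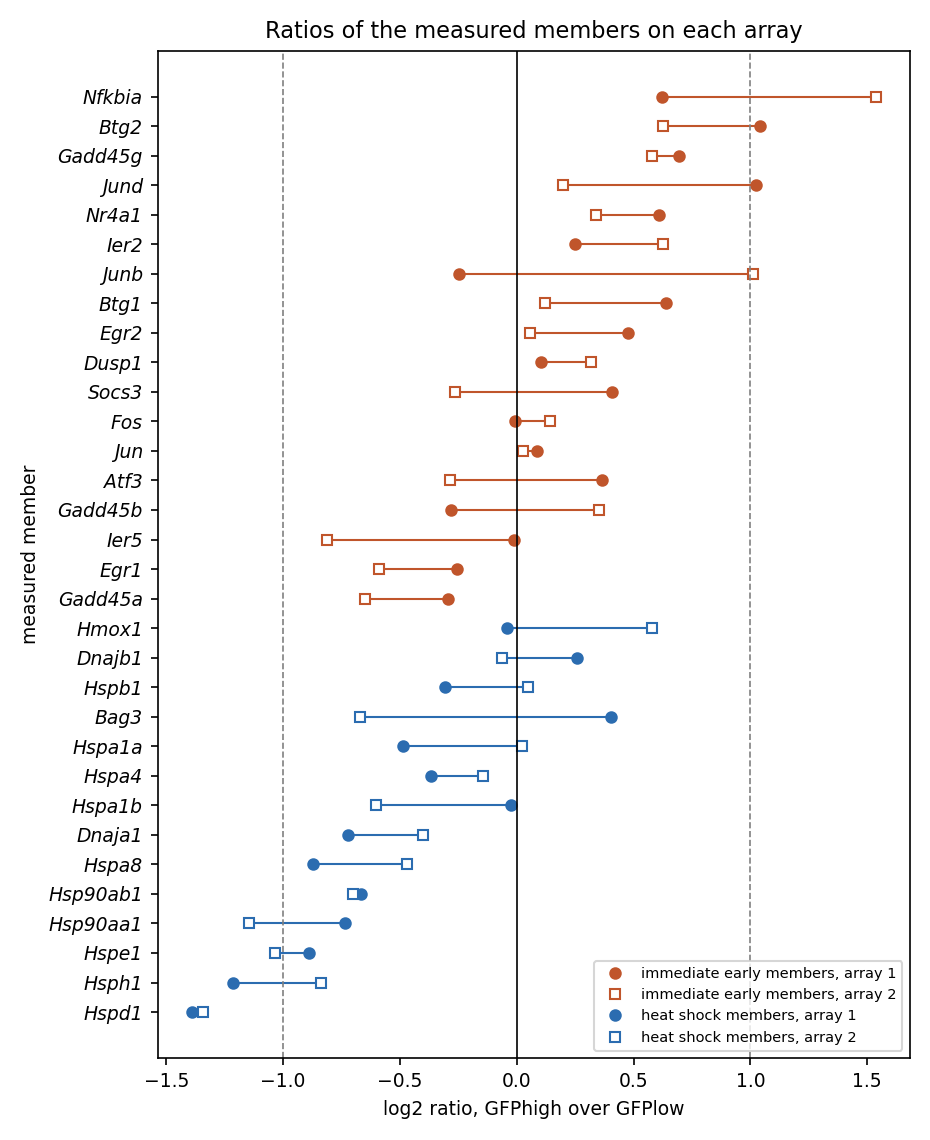
Log2 ratio of GFPhigh over GFPlow (horizontal axis) for the 32 measured members (vertical axis), with filled circles for array 1 and open squares for array 2 and dashed lines at 2-fold. Hspd1 is the only member past 2-fold on both arrays, and 15 of the 32 members change sign with centring on the array median or on spike-ins.

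Of the mitochondrial chaperonin genes, Hspd1 had the lowest ratio of the set. It encodes HSP60, the barrel-shaped chaperonin in which mitochondrial proteins fold, and its intensity was 3530.2 and 3373 in GFPhigh against 9257 and 8562 in GFPlow. The populations did not overlap, which in this direction held for 33.4% of all measured genes. The ratio of -1.37 ± 0.03 corresponds to a level 2.58-fold higher in GFPlow. A further Hspd1 probe, well above background in GFPhigh on 1 array only, was at -0.99. Hspe1, which encodes HSP10, the lid of that barrel, had intensities of 1077 and 953 in GFPhigh against 1994 and 1949.5 in GFPlow. Its levels did not overlap either, and its ratio of -0.96 ± 0.10 fell short of 2-fold on array 1, at -0.89, but not on array 2, at -1.03. The Hspd1 probe with the highest signal lies on chromosome 1 at positions 55134829 to 55134888 of the mm9 build named in the file headers and the Hspe1 probe at 55147922 to 55147981. The probes of Hsph1, Btg2 and Nfkbia lie on chromosome 5 at 150419426 to 150419485, on chromosome 1 at 135973916 to 135973975 and on chromosome 12 within 56590945 to 56591440 of the same build. No annotation of that build was used here, so exons are not given.

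HSP90 and HSP110 genes had similar ratios. Hsp90aa1, the stress-inducible cytosolic HSP90, had intensities of 4841 and 4021 in GFPhigh against 8063 and 8907 in GFPlow, a ratio of -0.94 ± 0.29. For Hsp90ab1, the constitutive form, they were 2911 and 2851 in GFPhigh against 4626 and 4633 in GFPlow, and the ratio of -0.68 ± 0.02 was nearly equal on both arrays. Hsph1 encodes HSP110, which resets HSP70 by exchanging its nucleotide, and gave 525 and 646 in GFPhigh against 1218 and 1155 in GFPlow, or -1.03 ± 0.27. In all 3 genes every GFPlow value lay above every GFPhigh value, as for 33.4% of all measured genes. Hsph1 reached 2-fold on array 1 only and Hsp90aa1 on array 2 only. The order of Hsph1, Hspe1 and Hsp90aa1 lies within the spread between the arrays.

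The HSP70 members ranged from no resolved difference to a lower level in GFPhigh. Hspa8 encodes the constitutive HSC70, with intensities of 4024 and 4469 in GFPhigh against 7364 and 6193 in GFPlow and a ratio of -0.67 ± 0.28. Its other probe was at -0.58. Hspa1a and Hspa1b, the strongly inducible pair, were closer to 0. The values for Hspa1a were 3707 and 4509 in GFPhigh against 5199 and 4435 in GFPlow, which overlap, and the ratio was -0.23 ± 0.36. For Hspa1b they were 862 and 721 in GFPhigh against 876 and 1094 in GFPlow, or -0.31 ± 0.41, with hardly any difference on array 1 (-0.02). The SDs of both genes exceed their ratios, and neither difference is resolved by these arrays. Hspa4, a relative of HSP110, was at -0.26 ± 0.16 with overlapping levels. A further Hspa4 probe, well above background in GFPhigh on 1 array only, was at -0.68 and disagreed in size. Another Hspa4 probe, too dim to be kept, was at 0.22.

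Hspa1a and Hspa1b have nearly the same coding sequence and transcripts of one may bind probes of the other, so their separate values are uncertain. The longest run shared by a Hspa1a and a Hspa1b probe on the array is 5 bases, so the probes themselves are distinct. The 2 Hspa1a probes, by contrast, overlap by 30 bases and are not independent readings. The shared run is shown for that reason.
Hspa1a: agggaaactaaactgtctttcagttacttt

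Co-chaperones and the remaining stress genes were mixed. Dnaja1, an HSP40 that delivers substrates to HSC70, had intensities of 501 and 597 in GFPhigh against 828 and 787 in GFPlow, and a ratio of -0.56 ± 0.23 that was nearly the same on its other measured probe (-0.56). Dnajb1, the stress-inducible HSP40, was at 0.10 ± 0.23, with 367 and 256 in GFPhigh against 307 and 268 in GFPlow. The brighter Dnajb1 probe was marked as an outlier spot on array 2 and is not used; it read -0.10 on array 1 and -0.46 on the marked spot. Bag3, an HSP70 partner in the clearance of damaged proteins, had opposite signs on the arrays, 0.40 and -0.67. Hspb1, the small chaperone HSP27, was at -0.13 ± 0.25 and was well above background in GFPhigh on 1 array only. Hmox1, heme oxygenase, was at 0.27 ± 0.44 with overlapping levels of 202 and 261 in GFPhigh against 208 and 175 in GFPlow. The ratios of Dnajb1, Bag3, Hspb1 and Hmox1 are smaller than their SDs.

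**Figure D2:**
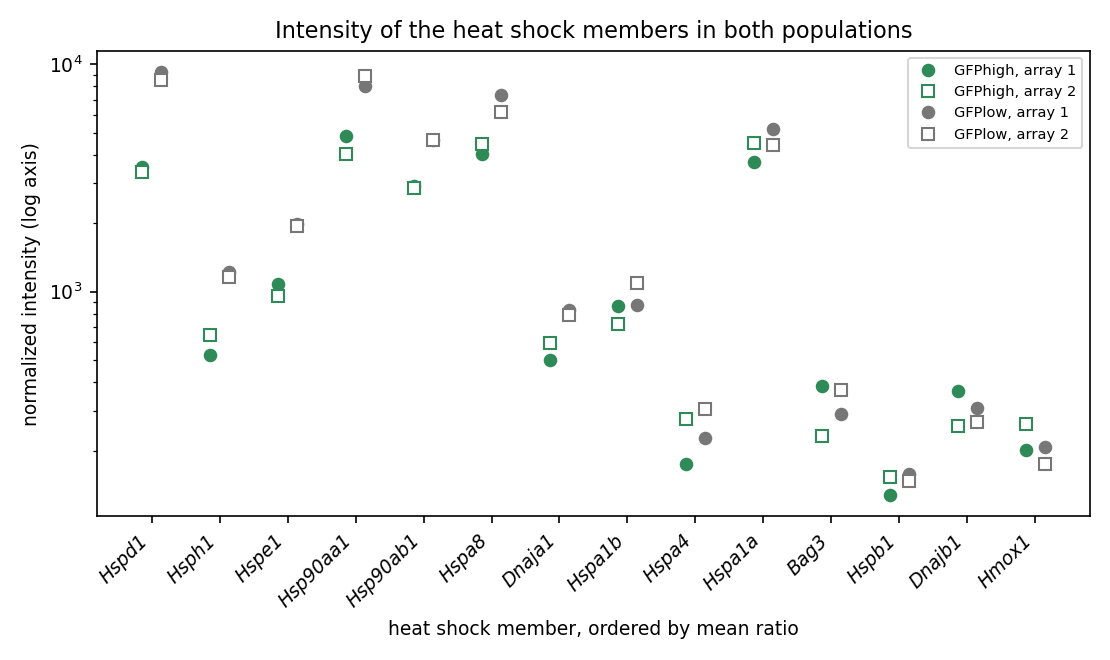
Normalized intensity on a log axis (vertical) of the 14 heat shock members (horizontal, ordered by mean ratio) in GFPhigh (green) and GFPlow (grey), with filled circles for array 1 and open squares for array 2. For 8 genes (Hspd1, Hsph1, Hspe1, Hsp90aa1, Hsp90ab1, Hspa8, Dnaja1 and Hspa1b) every GFPlow value lies above every GFPhigh value, as for 33.4% of all measured genes, while Hspa4, Hspa1a, Bag3, Hspb1, Dnajb1 and Hmox1 overlap; with centring on spike-ins the mean ratios of Dnajb1 and Hmox1 are below 0 too.

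Other chaperone genes that are no members were more often below 0 than above it. Of 21 genes of the cytosolic chaperonin TRiC, prefoldin and the mitochondrial chaperones, 19 were measured. In this list 1 was called higher in GFPlow, where 2.69% of all measured genes were, and 0 in GFPhigh, where 1.76% were. Of these 19, 12 were below 0 on both arrays, 2 were above 0 on both and 5 had opposite signs, and the median was -0.51. Over all measured genes these shares were 36.6%, 28.1% and 35.3%. The called gene was the TRiC subunit Cct5 at -1.06 ± 0.05, and the subunits Tcp1, Cct3 and Cct8 were at -1.07 ± 0.22, -0.97 ± 0.20 and -0.94 ± 0.47. Of 38 other cytosolic chaperones and co-chaperones, 25 were measured and 0 were called in either direction, with a median of -0.18. Of these 25, 14 were below 0 on both arrays, 4 were above 0 on both and 7 had opposite signs. In GFPhigh, 21 of the 25 were well above background on both arrays. Bag2, Hspa4l, Chordc1 and Dnajb4, which are below 0 on both arrays, were not. The HSP90 co-chaperones Ptges3 and Ppid were at -0.92 ± 0.43 and -0.70 ± 0.24, the HSP70 relative Hspa14 at -0.82 ± 0.37 and Dnajb9, which acts in the endoplasmic reticulum, at 0.82 ± 0.50.

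Mitotic genes were also lower in GFPhigh. Of 15 listed mitotic genes 12 were measured, and the median was -1.63. Of these 12, 10 were called higher in GFPlow, where 2.69% of all measured genes were, and 0 in GFPhigh, where 1.76% were. In GFPhigh, 7 of the 12 were well above background on both arrays. The others passed the filter through GFPlow only, the called genes Kif4, Cdc2a and Ccnb1 among them. Summed intensity over the 14 on the array was 4107 and 4297 in GFPhigh against 14877 and 15842 in GFPlow, with Kif11 not well above background in any channel. Called higher in GFPlow likewise were 6 of the 13 gastric epithelium markers. These were the surface mucous cell genes Gkn1, Gkn2, Tff1 and Muc5ac and the keratin genes Krt7 and Krt19. Their ratios ran from -3.24 for Gkn2 to -1.73 for Krt7, and Gkn1 was not well above background in GFPhigh on either array. The gland mucin gene Muc6 was at 1.06 ± 0.28, and Tff2 at 0.95 on array 1 and 2.68 on array 2. Krt8 was at -1.19 ± 0.98, and Cdh1, Epcam, Krt18 and Cldn18 were at -0.16, 0.12, 0.08 and 0.002. The part of proliferation or of epithelial cell makeup in the chaperone ratios was not tested. At 1.5-fold on each array, 5 heat shock members were higher in GFPlow (Hspd1, Hsph1, Hspe1, Hsp90aa1 and Hsp90ab1), where 7.5% of all measured genes were, and 0 were higher in GFPhigh, where 5.59% were.

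AP-1 is the dimer of a Fos and a Jun protein and the classic first responder to growth factors and stress, and Fos is among the genes most used to mark dissociated cells. Fos was present at nearly equal intensity in both populations, 668 and 660.2 in GFPhigh against 671 and 598 in GFPlow, a ratio of 0.07 ± 0.10. Jun was likewise at 233 and 207 in GFPhigh against 219 and 204 in GFPlow, or 0.06 ± 0.04. The levels of both genes overlapped. Of the other subunits, Jund gave 8476 and 5889.6 in GFPhigh against 4168 and 5139.6 in GFPlow, or 0.61 ± 0.59, which is 2-fold on array 1 but not on array 2 (0.20). Junb changed sign between the arrays, from -0.25 to 1.01, and its levels overlapped (0.38 ± 0.89). Its other probe shares 22 bases with the first and was at 0.27. Fosb was well above background in GFPlow on both arrays but in GFPhigh on 1, with a ratio of 0.04, and was not measured by the rule. Fosl1 and Fosl2 were not well above background in any channel. No AP-1 subunit was called.

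The probes of Fos, Jun and Egr2 are each printed 10 times on the array, which gives the error of a single spot. Across the 10 spots the Fos ratio ran from -0.24 to 0.13 on array 1 and from -0.05 to 0.47 on array 2. The Jun ratio ran from -0.14 to 0.34 on array 1 and from -0.40 to 0.25 on array 2. SDs between spots of 1 array were 0.14 and 0.18 for Fos, 0.16 and 0.22 for Jun and 0.19 and 0.27 for Egr2, on arrays 1 and 2. The mean over spots was -0.0055 and 0.14 for Fos and 0.09 and 0.03 for Jun. For Egr2, with 10 spots on array 1 and 9 on array 2 after 1 outlier spot was left out, the mean was 0.48 on array 1 and 0.06 on array 2, further apart than the spot SDs. The spread of spots on 1 array was therefore not the whole error of the Egr2 ratio.

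**Figure D3:**
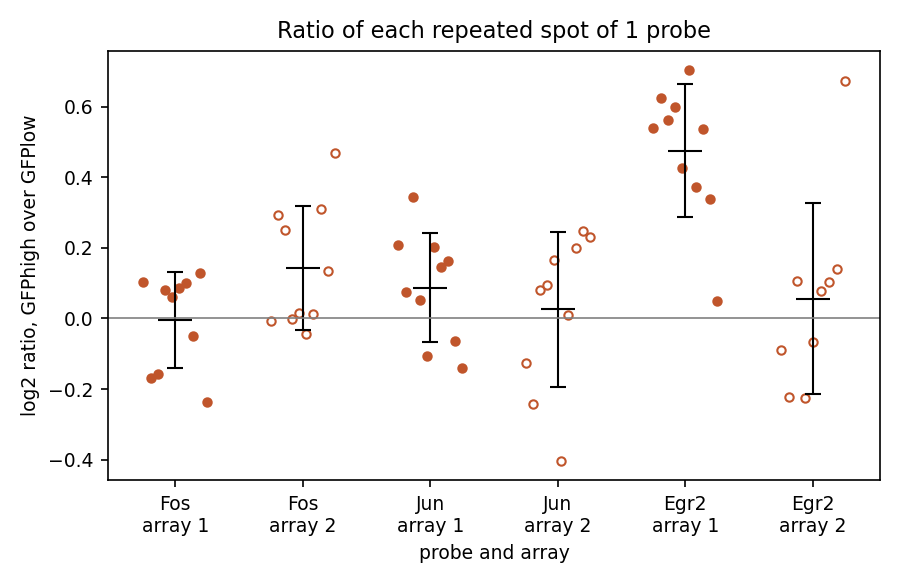
Log2 ratio of GFPhigh over GFPlow (vertical axis) of each repeated spot of the Fos, Jun and Egr2 probes on arrays 1 and 2 (horizontal axis), with the mean and SD over spots in black. Jun spots lie on both sides of 0 on both arrays, Fos spots run from -0.24 to 0.13 on array 1 and from -0.05 to 0.47 on array 2, and Egr2 has a mean of 0.48 on array 1 and 0.06 on array 2; with centring on the array median or on spike-ins all 3 means over arrays are below 0.

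No other early transcription factor was called. Egr2, a zinc finger factor, was at 0.27 ± 0.30, and Egr1, the best known of that family, at -0.42 ± 0.24, with 549 and 413 in GFPhigh against 654 and 622 in GFPlow. The Egr1 levels did not overlap, which in this direction held for 33.4% of all measured genes. Nr4a1, an orphan nuclear receptor, gave 2131 and 2102 in GFPhigh against 1396 and 1659 in GFPlow, or 0.48 ± 0.19. Atf3, a repressor induced by many stresses, had opposite signs on the arrays, 0.37 and -0.29. Nr4a2 and Maff were well above background in GFPlow on both arrays but in GFPhigh on 1, and Egr3 in no channel, so these 3 were not measured. Gadd45a and Hspb1 had the same pattern as Nr4a2 and Maff but mean ratios below 0, and count as measured for that reason. Unfiltered, Nr4a2 was at 0.40 ± 0.41 and Maff at 0.02 ± 0.15.

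Inhibitors of signalling held the member with the highest ratio. Nfkbia encodes IκBα, which retains NF-κB in the cytoplasm and is itself induced by it, and gave 2112 and 3717 in GFPhigh against 1371 and 1282 in GFPlow. The levels did not overlap, which in this direction held for 25.5% of all measured genes. The ratio of 1.08 ± 0.65 was 0.62 on array 1 and 1.54 on array 2, so Nfkbia was not called. Dusp1, a phosphatase that switches off MAP kinases, was at 0.21 ± 0.15, with 221 and 231 in GFPhigh against 205 and 186 in GFPlow. Socs3, an inhibitor of cytokine receptors, had opposite signs, 0.41 and -0.27. Dusp2 and the small GTPase gene Rhob were not well above background in any channel.

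Genes that restrain growth included the next highest ratios. Btg2, an antiproliferative protein that promotes mRNA decay, gave 795 and 677 in GFPhigh against 387 and 439 in GFPlow, or 0.83 ± 0.29. It reached 2-fold on array 1 (1.04) and not on array 2 (0.63), and a further measured probe of Btg2 was at only 0.18, with opposite signs on the arrays (-0.10 and 0.45), so the probes of this gene disagree in size. Btg1, its relative, was at 0.38 ± 0.37. Gadd45g gave 3825 and 3575 in GFPhigh against 2364 and 2393 in GFPlow, and its ratio of 0.64 ± 0.08 was similar on both arrays. The Gadd45 genes, which encode stress sensors that act on MAP kinase kinases and the cell cycle, went different ways: Gadd45b was at 0.04 ± 0.45 and Gadd45a at -0.47 ± 0.25, the latter well above background in GFPhigh on 1 array only. At 1.5-fold on each array, 2 of the 18 immediate early members were higher in GFPhigh, Nfkbia and Btg2, where 5.59% of all measured genes were, and 0 in GFPlow, where 7.5% were. These were also the 2 genes above 0 in every alternative, while Gadd45g was at -0.17 with centring on the array median and at -0.14 with centring on spike-ins.

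Small early proteins and secreted members completed the set. Ier2 gave 2503 and 2773 in GFPhigh against 2108 and 1796 in GFPlow, or 0.44 ± 0.27. Ier5, which acts on HSF1, had nearly equal levels on array 1 (520.2 in GFPhigh and 524 in GFPlow) but 318 against 558 on array 2, or -0.41 ± 0.57. Ier3 and Cyr61, a secreted matrix protein induced by YAP, were each well above background on 1 array per population, and Ctgf, a relative of Cyr61, in no channel. Zfp36, which destroys AU-rich mRNAs, was well above background in GFPlow on both arrays and in GFPhigh on 1, with an unfiltered ratio of 0.09 ± 0.10. These 4 were not measured. Among the 12 members that were not measured, unfiltered mean ratios ran from -0.39 for Fosl2 to 0.40 for Nr4a2, and dim probes are drawn towards 0 by the offset.

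**Figure D4:**
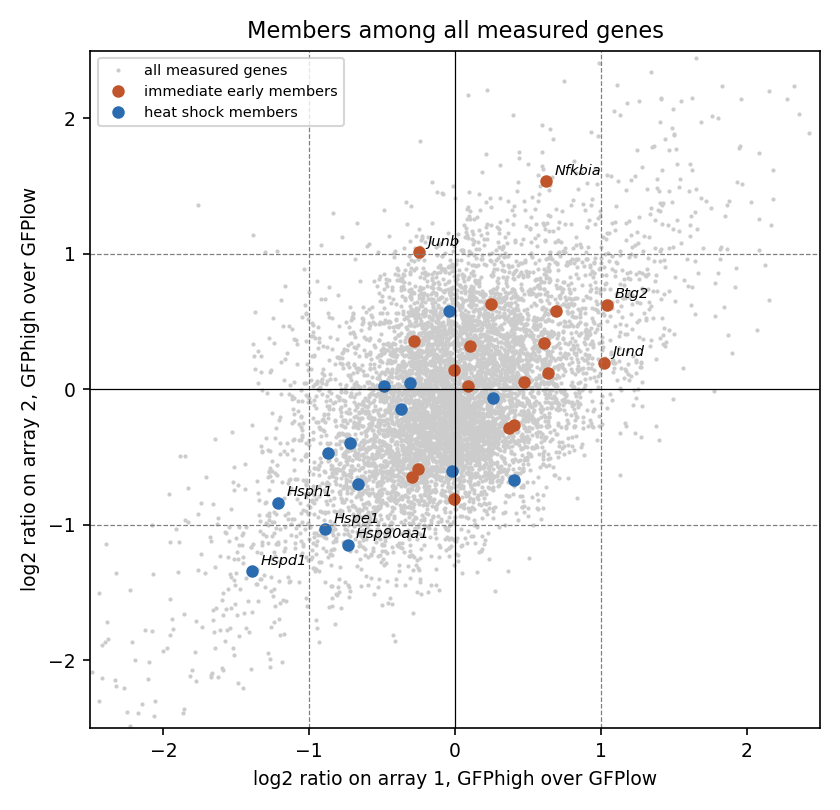
Log2 ratio on array 1 (horizontal axis) against array 2 (vertical axis) for all 7835 measured genes (grey), the immediate early members (orange) and the heat shock members (blue), with dashed lines at 2-fold and 45 genes outside the axes. The heat shock members with the lowest ratios lie along the diagonal at the lower left, Nfkbia and Btg2 lie at the upper right, and Junb lies off the diagonal; ratios are relative to the average gene, and most orange points fall below 0 with centring on spike-ins.

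Other immediate early genes outside the set did not share 1 direction, while most measured genes of MAP kinase feedback and mRNA decay lay above 0. Of 32 other immediate early genes 19 were measured, with a median of -0.09. Of these 19, 7 were above 0 on both arrays, 8 were below 0 on both and 4 had opposite signs. In this list 2 were called higher in GFPlow, where 2.69% of all measured genes were, and 0 in GFPhigh, where 1.76% were. The called genes were the zinc finger factor Klf4 at -1.66 ± 0.55 and the growth regulator Myc, well above background in GFPhigh on 1 array, at -1.40 ± 0.23, while Klf2 was at 0.89 ± 0.09 and Klf10 at -0.84 ± 0.20. Of 24 genes of MAP kinase feedback and mRNA decay 10 were measured, with 1 called higher in GFPhigh, Dusp6, a phosphatase specific for ERK, at 1.04 on array 1 and 1.16 on array 2, and 0 in GFPlow. Socs2, Btg3 and Dusp4 were at 0.67 ± 0.56, 0.56 ± 0.26 and 0.40 ± 0.48, and the median was 0.30. Of these 10 genes, 6 were above 0 on both arrays, 0 were below 0 on both and 4 had opposite signs. Over all measured genes these shares were 28.1%, 36.6% and 35.3%. The medians of these lists, like those of the members, are relative to the average gene.

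**Figure D5:**
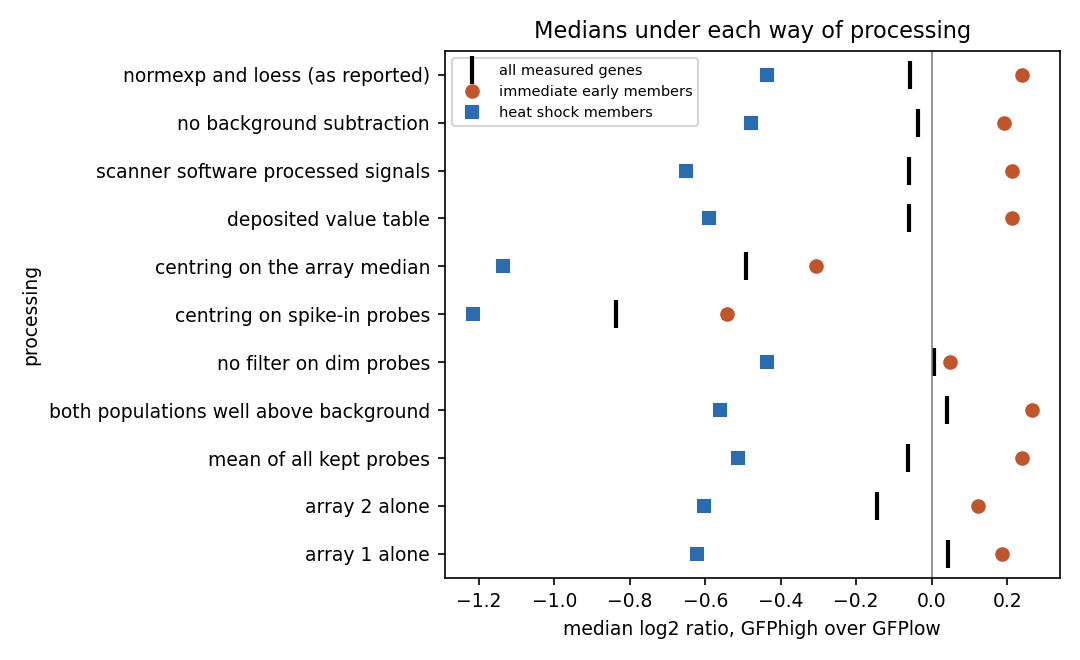
Median log2 ratio of GFPhigh over GFPlow (horizontal axis) of the immediate early members (circles), the heat shock members (squares) and all measured genes (black bars) under each way of processing (vertical axis). The immediate early median lies above 0 except with centring on the array median (-0.31) or on spike-ins (-0.54), and lies right of the bar for all genes in each case, while the heat shock median lies left of it in each case.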

How the data were processed

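Total RNA (150 ng) of GFPhigh and GFPlow cells, each pooled from 20 mice, was, per the labels' protocols, amplified, labelled and hybridised to 2 two-colour arrays with dyes swapped. The deposited scanner files hold spot intensity values (mean signal, local background and processed signal), made with Feature Extraction 10.5.1.1 per the file headers and 9.5.3 per the submitters' processing notes. The deposited value table holds log10 ratios, which match the scanner's ratios turned to GFPhigh over GFPlow.

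With limma 3.58.1 in R 4.3.3, mean signals were corrected with normexp (offset 50), then each array's ratios were normalized by loess, giving control spots a weight of 0. Spots marked as outliers were left out, repeated spots were averaged, and log2 ratios were turned to GFPhigh over GFPlow. Printed intensities are per channel after Aquantile. A probe was kept where the population with the higher mean was well above background on both arrays (more than 0.5 of its spots), and a gene was represented by its kept probe of highest average signal. This left 9498 of 41174 gene probes and 7835 genes; 0 gene spots were saturated. A gene was called at 2-fold in 1 direction on each array. The normalization and the calling rule were tested on bright simulated spots with less noise between arrays than these data. That test therefore does not give the error of the calls made here. Both arrays hold the same 2 RNA samples and count as 1 replicate, so no test was run, and the number of arrays limits the precision.

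All measured members are named with their mean ratio or with both arrays' ratios. Of the companion lists, the 4 measured genes with the largest absolute mean ratio are named, except 1 that is not reported here. The members and all lists were chosen with earlier results of these data known. Alternatives were no background subtraction, the processed signals, the value table, centring on the array median or on 10 spike-in probes, other filters, probe averaging, a 1.5-fold threshold and each array alone.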

Additional observations from a re-analysis of the deposited data

How the results depend on the processing

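Hspd1 was called higher in GFPlow under each alternative run. The number of members called there was 2 with the processed signals and with the value table (Hsph1 added), 9 with centring on spike-ins and 5 at 1.5-fold, where 2 were higher in GFPhigh. The share of all genes called higher in GFPlow was 6.51%, 6.47%, 20.6% and 7.5% in these settings, in that order. At 1.5-fold, 5.59% of all genes were higher in GFPhigh. With 1 array alone, 2 members were higher in GFPhigh and 2 to 3 in GFPlow. Without replicate 1 these were Junb and Nfkbia in GFPhigh, and Hsp90aa1, Hspd1 and Hspe1 in GFPlow. Without replicate 2 they were Btg2 and Jund in GFPhigh, and Hspd1 and Hsph1 in GFPlow. The shares of all genes in GFPhigh and GFPlow were 4.07% and 5.45% without replicate 1, and 3.67% and 4.2% without replicate 2. Of all genes, 349 were called in the reported setting, 863 with the processed signals, 860 with the value table, 225 with centring on the array median (10 of them higher in GFPhigh), 1632 with centring on spike-ins (21 of them higher in GFPhigh), 1026 at 1.5-fold and 744 to 868 on 1 array alone.

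The median ratio of heat shock members, -0.44 as reported, was -0.48 without background subtraction, -0.65 with processed signals, -0.59 with the value table, -1.13 with centring on the array median, -1.22 with centring on spike-ins, -0.56 where both populations had to be above background, -0.51 with the mean of all probes and -0.62 to -0.60 on 1 array alone. That of immediate early members, 0.24 as reported, was -0.31 with centring on the array median, -0.54 with centring on spike-ins, 0.049 without a filter on dim probes and 0.12 to 0.19 on 1 array alone. That of all measured members, 0.04 as reported, was 0.026, -0.0016, -0.0016, -0.45, -0.74, 0.0012, 0.049 and 0.0035 without background subtraction, with processed signals, the value table, array-median and spike-in centring, no filter, both populations above background and the mean of all probes, and -0.090 to -0.0055 on 1 array alone. Centring on the array median moved the median of all genes to -0.49 and centring on spike-ins to -0.84; less the median of all genes, the heat shock median stayed between -0.66 and -0.38 and the immediate early median between 0.04 and 0.30. The cause of these shifts was not tested. No paired analysis was possible because both arrays hold the same 2 RNA samples. Dim probes limit 12 members, which were not measured.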

Other observations

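Stress genes outside both programmes were looked at in 3 further lists. Of 21 genes of the NRF2 and metal responses 17 were measured, with a median ratio of -0.46. In this list 2 were called higher in GFPlow, where 2.69% of all measured genes were, and 1 in GFPhigh, where 1.76% were. The metallothioneins Mt2 and Mt1, which bind zinc and copper, were at -2.10 ± 0.13 and -1.22 ± 0.03, further from 0 than any heat shock member in the case of Mt2. Sqstm1, the autophagy receptor p62, was at 1.27 ± 0.00, with intensities of 5163 and 5427 in GFPhigh against 2151 and 2251 in GFPlow. Nqo1, a quinone reductase, was at -1.85 on array 1 and -0.49 on array 2 and was not called.

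Of 21 YAP, SRF and cytoskeletal targets 10 were measured, with a median of -0.34. In this list 1 was called higher in GFPhigh, where 1.76% of all measured genes were, and 1 in GFPlow, where 2.69% were. Of these 10, 8 were below 0 on both arrays, against 36.6% of all measured genes. The gene called higher in GFPhigh was the small GTPase gene Rhoc, at 2.04 ± 0.29. Tpm1 and Flna, which encode actin-binding proteins, were at -0.79 ± 0.75 and -0.61 ± 0.44. Of 15 p53 and growth arrest targets 11 were measured and 0 were called, with a median of 0.15; no test was run on this list. Ddit4, Sesn2 and Bbc3 were at 0.62 ± 0.04, 0.61 ± 0.29 and 0.56 ± 0.16, and Pmaip1, not well above background in GFPhigh on either array, at -0.51 ± 0.16.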
